A study of Mus musculus with 20 samples.

Results

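Proteasome subunit genes were followed in fibroadipogenic progenitors, the muscle stromal cells from which fibroblasts and fat cells arise, in mice with and without a pancreatic tumour. Members were all genes whose symbol starts with Psma, Psmb, Psmc, Psmd or Psme, followed by a number, in the count tables of all 3 time points. Of 43 such symbols, the 3 interferon-inducible beta subunits Psmb8, Psmb9 and Psmb10 were set aside, which left 40 members among the 24394 symbols shared by the tables. By role they fell into 16 subunits of the core particle (8 alpha and 8 beta), 6 ATPases of the regulatory base, 14 lid and other base genes, and 4 activators. Of these 40, 38 passed the filter on low counts at every time point. The other 2 were Psma8, an alpha subunit of the testis, and Psmb11, a beta subunit of the thymus.

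The proteasome degrades proteins that carry ubiquitin chains. Its core particle is a stack of rings. The alpha rings gate the entry, and the inner beta rings hold the proteolytic sites, which belong to Psmb5 (chymotrypsin-like), Psmb6 (caspase-like) and Psmb7 (trypsin-like). The regulatory particle caps the core, where its lid and base bind ubiquitin and remove it and the Psmc ATPase ring unfolds the substrate and feeds it in. Psme genes encode other caps that need no ubiquitin. Under interferon, Psmb8, Psmb9 and Psmb10 take the place of Psmb5, Psmb6 and Psmb7 in newly made cores, and Psme1 and Psme2 are induced with them. The transcription factor Nfe2l1 raises proteasome genes when the proteasome is overloaded, and in wasting muscle fibres the ubiquitin-proteasome route is a main path of protein loss.

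Hindlimb muscle of C57BL/6J male mice gave the cells, sorted as negative for CD31, CD45, α7-integrin and propidium iodide and positive for SCA-1 and Hoechst. The KPC groups had received 2 M KPCY cells (M, mega), a mouse pancreatic tumour line, in 50 µL into the pancreas, and the control groups had sham surgery. At day 14 there were 4 KPC and 3 control libraries, at day 21 there were 3 of each, and at day 26 the numbers were 3 KPC and 4 control, each labelled a biological replicate. Every day had its own controls. Library codes in the labels start with a number, and at days 14 and 21 KPC and control libraries shared no such number. What it marks cannot be told apart from the KPC effect on those days. The labels state no ages. The tumour is a transplanted cell line, and the sorted population was read as bulk RNA.

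Promoter words for factors of the proteasome and interferon responses bear on these genes, and the members that carry them in RefSeq windows of build GRCm38.p6 (250 bases before to 50 after the start) are shown first, since several recur in the results. Of the 40 members, 33 had a window. The antioxidant response element core, the word bound by Nfe2l1 and Nfe2l2, was searched as TGACNNNGC on both strands. It stood in the windows of 6 members (18.2% of 33, against 14.0% of 27025 genes with a window). The matches are in capitals, 5′ to 3′ on the gene's strand, with up to 8 bases on each side.
Psmb5, chr14:54618026-54618050, minus strand: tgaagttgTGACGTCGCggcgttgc
Psmb6, chr11:70525340-70525364, plus strand: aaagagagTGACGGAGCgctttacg
Psmc6, chr14:45329589-45329613, plus strand: agccagtaGCTAAGTCAggcattgc
Psmd12, chr11:107479278-107479297, plus strand: tctGCTGTGTCAcatttgcc
Psmd9, chr5:123228151-123228175, plus strand: ctagccggTGACCCCGCccacttcc
Psme4, chr11:30771760-30771784, plus strand: ctgcggctGCAGCGTCAccagaaga

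The interferon-stimulated response element was searched on both strands as a pair of GAAA words with any 2 bases between them. It stood in the windows of 4 members (12.1%, against 3.99% of all genes with a window).
Psmb3, chr11:97703263-97703288, plus strand: cagtgactTTTCACTTTCcgctttcc
Psmd4, chr3:95042677-95042702, minus strand: aaccaaccTTTCCATTTCtgtggcgc
Psmd9, chr5:123228023-123228048, plus strand: gacagaatGAAAAAGAAAggaatgaa
Psme1, chr14:55578495-55578520, plus strand: agctgtgcTTTCGCTTTCccttcccg

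Psmd9, a base assembly chaperone, carried both words. The interferon-gamma activated site, searched as TTCNNNGAA, stood in 1 member, the base scaffold Psmd2 (3.03%, against 9.55%). The CCAAT box, searched as CCAAT on both strands, stood in 13 members (39.4%, against 41.1%). No matches of different words shared bases. A match is a description of the letters in these windows only.

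Levels were compared between genes as CPM (counts per megacount of the library, after scaling) per kb of exon, from the GENCODE gene models of the same build. The beta subunits had the highest class median. In the control libraries Psmb6, the caspase-like subunit, had the highest mean level of all members at 91.7 ± 11.7 CPM per kb (SD, n = 10). It was followed by Psme1 of the inducible activator ring at 77.4 ± 6.82 CPM per kb, which lay below Psmb6 by more than 1 SD of it, and by the beta subunit Psmb4 at 75.9 ± 11.3 CPM per kb, which differed from Psme1 by less than the SD of either. In the other classes the highest control means were those of Psma4 in the alpha rings (61.1 CPM per kb), Psmc5 among the ATPases (63.5 CPM per kb) and Psmd8 of the lid (49.5 CPM per kb). Median control levels were 55.4 CPM per kb in the beta subunits, 44.7 in the ATPases, 43.2 in the activators, 38.8 in the alpha subunits and 30.0 in the lid and base genes.

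The lowest levels belonged to genes that assist assembly or form rarer caps. Psmd10, a base assembly chaperone, had a control mean of 5.57 ± 0.661 CPM per kb, and the chaperones Psmd5 and Psmd9 had 6.39 and 10.8 CPM per kb. Psme4, the nuclear cap, averaged 9.69 ± 2.45 CPM per kb. The lowest of the alpha subunits was Psma3 (19.7 CPM per kb), of the beta subunits Psmb1 (27.3 CPM per kb) and of the ATPases Psmc6 (27.3 CPM per kb). Psma8 did not exceed 0.299 CPM in any library. Psmb11 had no count in any library except KPC replicate 1 at day 26, where it stood at 0.39 CPM.

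The median proteasome subunit varied less between libraries than the median gene, in a comparison not matched for level. The coefficient of variation of CPM over the 20 libraries had a median of 14.5% for the 38 tested members, against 26.2% for 14141 genes. The lid subunit Psmd7 varied least (9.17%) and Psme4 most (25.9%). At day 14 Psme4 averaged 12.2 CPM per kb in KPC libraries and 12.7 in controls. At day 21 its means were 7.64 in KPC and 7.73 in controls, and at day 26 they were 12.5 in KPC and 8.91 in controls. The lid subunit Psmd3 (24.3%) and the ATPase Psmc1 (21.7%) were also variable, both with their highest library in KPC at day 26.

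**Figure D1:**
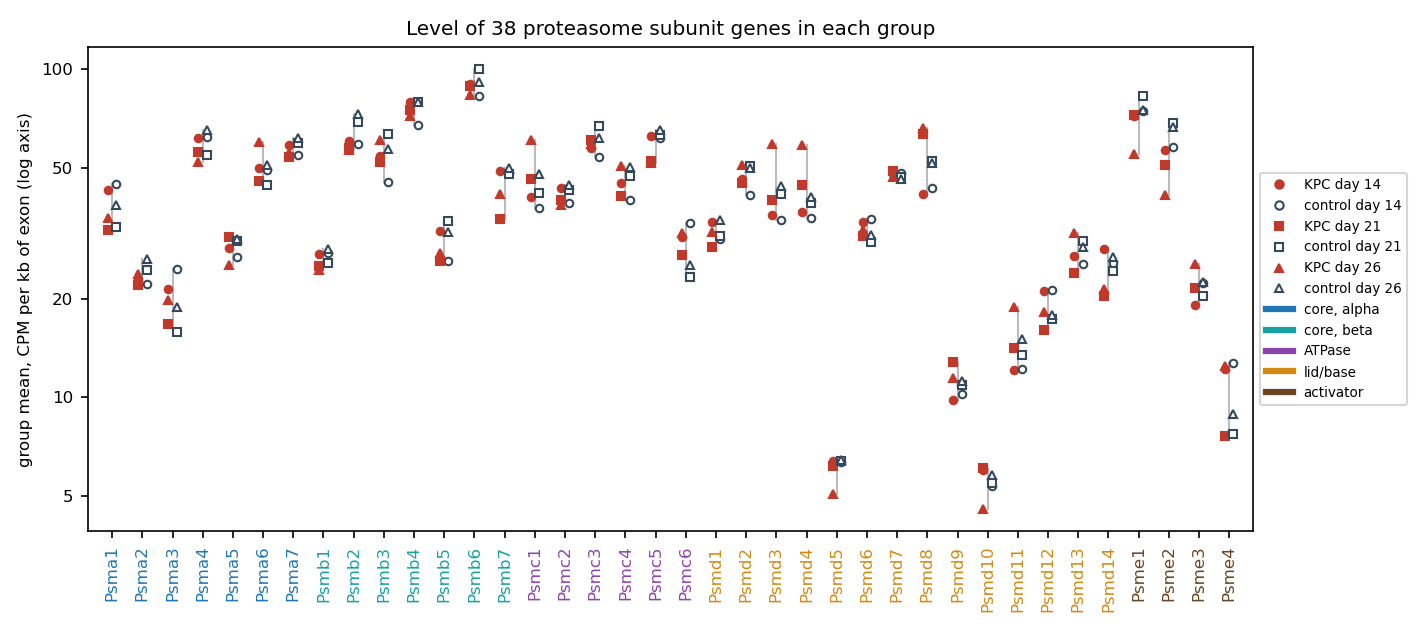
Mean level of each of the 38 tested members in each of the 6 groups, in CPM per kb of exon on a log axis, with members coloured by class and in order of their symbols within it; filled symbols are KPC and open symbols control. Control means run from 5.57 for Psmd10 to 91.7 CPM per kb for Psmb6, and for most members the group means of KPC and control lie close together beside the differences between genes.

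Total counts ran from 12.9 to 26.4 megacounts per library, and the members together took 0.219% to 0.316% of them. At day 26 KPC replicate 3 stood apart from KPC replicates 1 and 2. The chi-square per gene between it and them was 383 and 338, against 88.7 between replicates 1 and 2 and 12.1 to 55.3 for pairs in the other groups, and no pair within a group agreed within sampling noise. Results of day 26 are therefore given with and without it. The summed level of 8 progenitor markers (Pdgfra, Ly6a, Dcn and others) was 18700.6, 25739.7 and 38489.2 CPM in KPC replicates 1 to 3 at day 26, against 43601 to 55510 CPM in controls. At day 21 it was 32997 to 36531 CPM in KPC and 49643 to 55624 CPM in controls, and the part of this shift in the results of days 21 and 26 was not tested. The 8 markers include the collagen genes Col1a1 and Col3a1. In bulk samples fewer cells of a type, less RNA per cell and lower levels of such genes cannot be told apart. Of the 40 members, 6 share exon sequence with another gene (Psma4, Psmb5, Psmb7, Psmc3, Psmd13 and Psme1), and without a stated use of strand their counts are uncertain there.

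At day 14 no proteasome subunit gene was called different between KPC and control, and for most members the interval left room for less than a 1.5-fold difference. In edgeR's quasi-likelihood test with Benjamini-Hochberg adjustment 0 of 38 members had an adjusted p under 0.05 (called), against 1.12% of 13344 genes. The same count was 0 in DESeq2, against 4.5% of genes, and 0 in limma-voom, against 0.764%. At an unadjusted p under 0.05 there was 1 member, against 14.3% of all genes. The log2 fold changes of KPC over control ran from -0.22 to 0.31, with a median of 0.04 over the members and 0.01 over all genes. The 95% interval lay within 1.5-fold in either direction for 36 of 38 members, all but Psmb5 and Psmd10, and within 2-fold for all 38. No member had groups without overlap, against 13.3% of all genes.

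The beta subunits lay above 0 at day 14 and the activators below, with no member called. The single member with an unadjusted p under 0.05 was Psmb3, a structural beta subunit. Psmb3 stood at 45.8, 45.6, 42.5 and 38.0 CPM in KPC, against 33.5, 34.1 and 38.9 CPM in controls. The lowest KPC library lay below the highest control, and the log2 fold change of 0.28 ± 0.12 (SE) had an adjusted p of 0.306 in edgeR. The member with the largest fold change was Psmb5, with 34.7, 31.0, 31.4 and 22.3 CPM in KPC and 23.9, 20.3 and 27.8 CPM in controls. Its KPC replicate 4 lay among the controls, and the log2 fold change was 0.31 ± 0.16 (edgeR adjusted p 0.425, interval -0.04 to 0.66). All 7 tested beta subunits had a fold change above 0 (median 0.14) in the main test. Psmb1 lay below 0 with RLE size factors, library size alone or a replicate block, in DESeq2 and in the fit of all 20 libraries.

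The other classes stayed closer to 0 at day 14. Of the ATPases 5 of 6 lay above 0 (median 0.11), with Psmc2 at 0.16 ± 0.12 (edgeR adjusted p 0.614) as the smallest p of its class. Of the lid and base genes 11 of 14 lay above 0 (median 0.05), with the base scaffold Psmd1 at 0.19 ± 0.10 (edgeR adjusted p 0.435). The alpha subunits had a median of 0.03, and Psma3 was at -0.19 ± 0.13 (edgeR adjusted p 0.572). All 4 activators lay below 0 (median -0.04), led by Psme3, a nuclear activator, at -0.22 ± 0.14 (edgeR adjusted p 0.519). Over all 38 members 28 lay above 0. That number became 23 with RLE size factors, in DESeq2 and in the fit of all 20 libraries. It was 24 with library size alone and 26 in limma-voom.

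Markers of other cells moved with the KPC group at day 14. The 12 endothelial markers summed to 784 to 987 CPM in KPC, against 578 to 668 CPM in controls, and 2 of them (Cldn5 and Egfl7) were called higher. The 12 leukocyte markers summed to 32.4 to 84.7 CPM in KPC and 18.1 to 32.0 CPM in controls. No endothelial or leukocyte marker was at 0 in all libraries of a group, although CD31 and CD45 were gated out. Their part in the fold changes was not tested.

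At day 21 the trypsin-like subunit Psmb7 was lower in KPC and was the only member called. Psmb7 (chr2:38588036-38644087, minus strand) stood at 42.1, 39.7 and 37.9 CPM in KPC, against 56.9, 59.3 and 48.3 CPM in controls. All 3 KPC libraries lay below all 3 controls. The means were 39.9 ± 2.09 CPM in KPC and 54.8 ± 5.77 CPM in controls (SD, n = 3 each), a log2 fold change of -0.46 ± 0.12 with an interval of -0.72 to -0.19 and an edgeR adjusted p of 0.0292. With 1 member of 38 called, the share stood below the 12.5% of 13154 genes called at day 21 (6.11% lower).

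The call on Psmb7 depended on single libraries. It was lost when KPC replicate 2, KPC replicate 3, control replicate 1 or control replicate 2 was left out, when libraries were scaled by size alone and when all 20 libraries were fitted together (0 members called, against 3.08% of genes). Nek6, a mitotic kinase gene, shares exon sequence with Psmb7 on the opposite strand and moved the other way. Nek6 averaged 36.7 ± 9.37 CPM in KPC and 13.6 ± 2.51 CPM in controls (SD, n = 3 each), a log2 fold change of 1.43 ± 0.20 (edgeR adjusted p 0.00103). How reads of the shared exons were assigned was not tested.

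The other beta subunits had the same sign at day 21 without being called. All 7 tested beta subunits had fold changes below 0, with a median of -0.27 against 0.01 over all genes, although Psmb1 lay above 0 with library size alone. Psmb5 stood at 26.7, 18.7 and 23.7 CPM in KPC and 34.8, 30.9 and 25.9 CPM in controls. The groups overlapped, and the log2 fold change was -0.40 ± 0.17 (edgeR adjusted p 0.145). Psmb6 was nearer to 0, at -0.17 ± 0.14 (edgeR adjusted p 0.459). The alpha subunits, which share the core with them, had a median of 0.02, and the smallest p among them was that of Psma7 at -0.16 ± 0.11 (edgeR adjusted p 0.417).

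Psme2, the beta part of the inducible activator ring, came next after Psmb7. It stood at 53.1, 41.5 and 52.4 CPM in KPC, against 71.0, 70.2 and 56.9 CPM in controls. The groups did not overlap, the log2 fold change was -0.43 ± 0.14, and the edgeR adjusted p of 0.0587 missed the threshold. DESeq2 called 2 members lower, Psmb7 and Psme2, against 17.2% of genes, and limma-voom called 1, against 12.2%. Its partner Psme1 was at -0.20 ± 0.12 (edgeR adjusted p 0.308). A close copy, Psme2b, had group means of at most 1.07 CPM.

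In the regulatory particle no gene was called at day 21. The ATPases had a median of -0.13, and Psmc5 had 66.8, 68.7 and 68.4 CPM in KPC and 92.5, 78.3 and 75.2 CPM in controls, without overlap (log2 -0.27 ± 0.11, edgeR adjusted p 0.137). The lid subunit Psmd13 was at -0.33 ± 0.11 (edgeR adjusted p 0.0802), while the lid and base genes had a median of -0.01 with 7 above and 7 below 0. Above 0 stood, among others, the ATPase Psmc6 at 0.21 ± 0.11 and the lid subunit Psmd8 at 0.27 ± 0.13 (edgeR adjusted p 0.224 for both). Groups did not overlap for 7 members (Psmb7, Psmc3, Psmc5, Psmd2, Psmd13 and Psme2 lower, Psmc6 higher), against 33.2% of all genes. Of those, Psmc3 shares exon sequence with Slc39a13, a zinc transporter, which was itself called lower (-0.52, edgeR adjusted p 0.0214).

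Over all members the fold changes at day 21 centred near 0. They ran from -0.46 to 0.27, with a median of -0.08 over 38 members and 0.01 over all genes, and with 14 members above and 24 below 0. At an unadjusted p under 0.05 there were 5 members, all lower (Psmb5, Psmb7, Psmc5, Psmd13 and Psme2), against 27.7% of genes. Scaling libraries by size alone moved members and all genes alike, to medians of -0.03 and 0.06. Intervals lay within 1.5-fold for 32 members and within 2-fold for all 38. KPC replicate 1 held the highest sums of endothelial (1253 CPM), leukocyte (144 CPM) and myofibre (580 CPM) markers. KPC replicates 2 and 3 held 802 and 691 CPM, 55.7 and 27.4 CPM, and 104 and 54.0 CPM of these, and controls at most 810, 39.1 and 56.1 CPM. Their part in the fold changes of day 21 was not tested. Without that library 4 members were called, Psmb5, Psmb7 and Psme2 lower and Psmd8 higher, against 19.7% of genes.

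**Figure D2:**
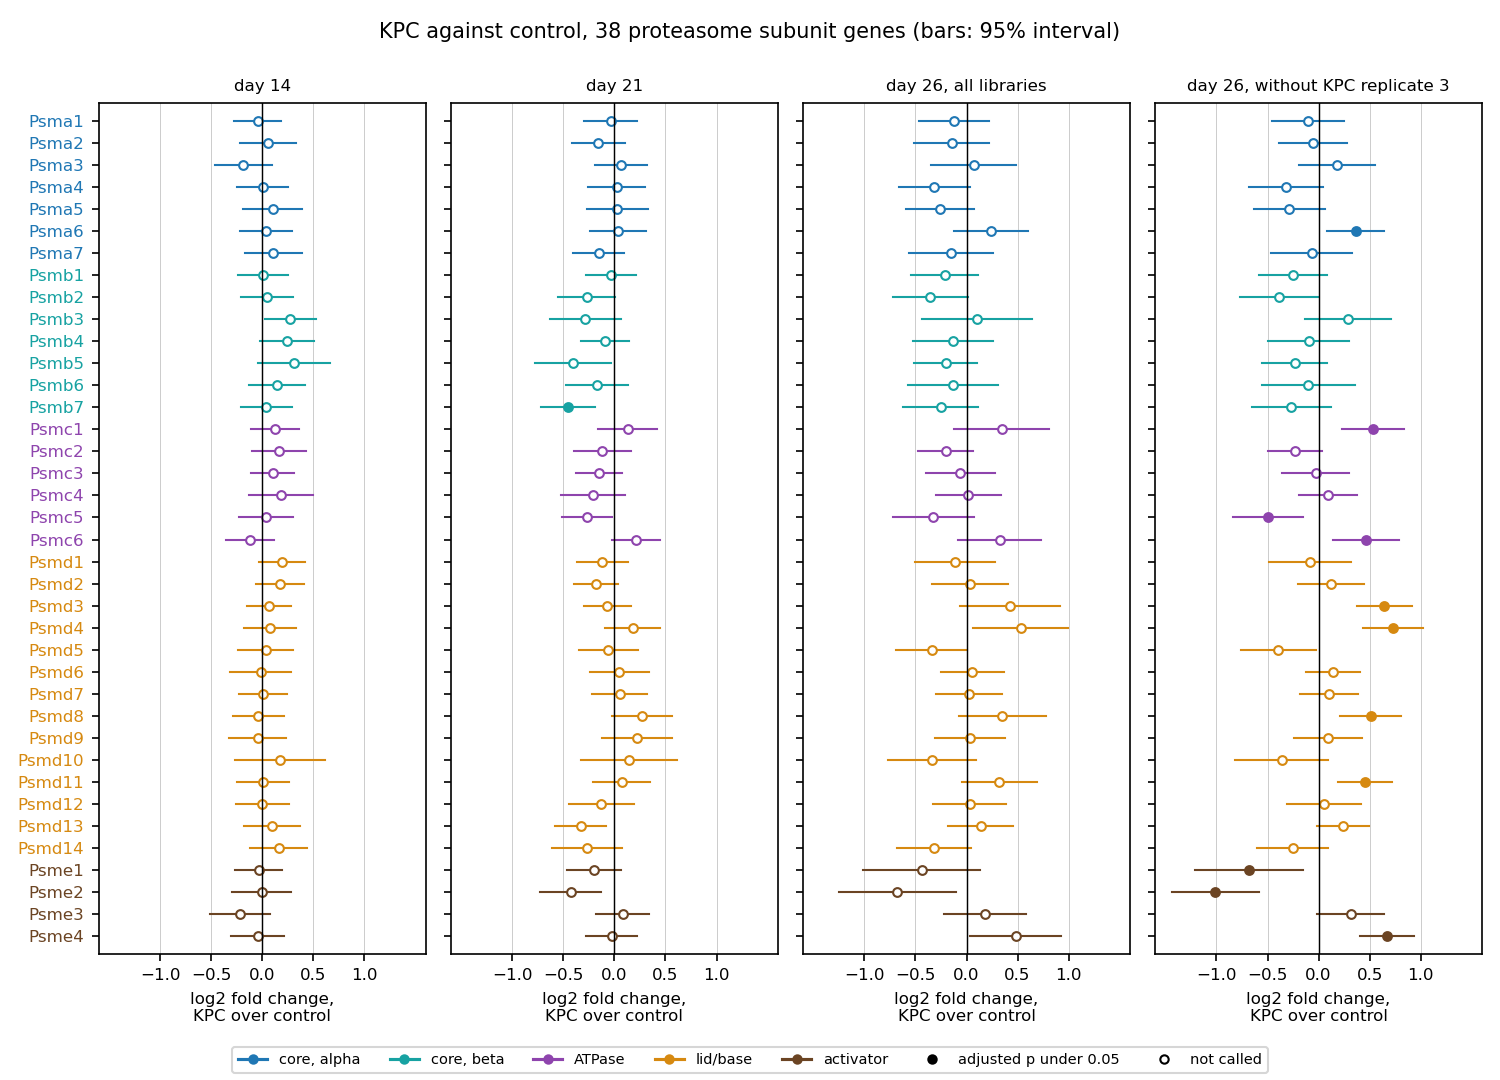
Log2 fold change of KPC over control for each of the 38 tested members at each day, with the 95% interval as a bar, and at day 26 also without KPC replicate 3; members are coloured by class and filled where the adjusted p is under 0.05. Psmb7 at day 21 is the only filled point in the fits of all libraries of a day, and 11 members are filled in the last panel.

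At day 26 KPC replicates 1 and 2 carried more of several regulatory-particle transcripts and of Psme4 than every control, and less Psme2, while KPC replicate 3 lay nearer to the controls. With all libraries edgeR called 0 of 38 members, and 0% of 13157 genes. DESeq2 called 0 members too, although it called 21.6% of genes, and limma-voom called 0. At an unadjusted p under 0.05 there were 3 members, Psmd4 and Psme4 higher and Psme2 lower, against 34.3% of genes. The log2 fold changes ran from -0.68 to 0.53, with a median of -0.09 over the members and -0.00 over all genes. Intervals lay within 1.5-fold for 18 of 38 members and within 2-fold for 36, all but Psme1 and Psme2. Groups did not overlap for 4 members, the ATPase Psmc2, the chaperones Psmd5 and Psmd10, and Psme2, against 29% of genes.

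Without KPC replicate 3, edgeR called 11 of 38 members, 8 higher and 3 lower, against 51.6% of 13517 genes (25.7% higher and 25.9% lower). The members' share was below that of all genes. Leaving this library out removes the KPC library that was closest to the controls, so the fit selects on the outcome. It also leaves 2 KPC libraries. The members called only there are named after their values were seen.

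Several lid and base genes were higher in KPC replicates 1 and 2. Psmd4, the ubiquitin receptor of the base, stood at 135, 109.6 and 72.8 CPM in KPC replicates 1 to 3, against 69.4, 69.0, 72.6 and 82.0 CPM in controls. KPC replicates 1 and 2 exceeded every control and replicate 3 lay among them. The log2 fold change was 0.53 ± 0.20 with all libraries (edgeR adjusted p 0.118, interval 0.06 to 1.00) and 0.73 ± 0.13 without replicate 3 (adjusted p 0.00196). Psmd3, a lid scaffold subunit, stood at 161, 133 and 82.0 CPM in KPC, against 91.0, 90.4, 92.2 and 98.1 CPM in controls. The same pair of libraries exceeded every control and replicate 3 lay below them all. Its log2 fold change was 0.43 ± 0.21 with all libraries (edgeR adjusted p 0.184) and 0.64 ± 0.12 without replicate 3 (adjusted p 0.00221).

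Psmd8 and Psmd11, both lid subunits, were called higher as well without replicate 3, at 0.51 ± 0.13 (edgeR adjusted p 0.0112) and 0.45 ± 0.12 (adjusted p 0.0118). That made 4 of 14 lid and base genes higher and 0 lower, a share near the 25.7% of all genes called higher in that fit. The deubiquitinase of the lid, Psmd14, was at -0.25 ± 0.15 (adjusted p 0.195). The ratio of Psmd4 to Psmd14 in CPM was 3.42, 3.76 and 2.52 in KPC replicates 1 to 3, against 1.65 to 1.93 in controls. All 3 KPC libraries lay above the controls in this ratio, which was chosen after the values were seen. At day 21 it was 2.39 to 2.88 in KPC and 1.73 to 2.23 in controls, also without overlap. At day 14 it was 1.48 to 1.65 in KPC and 1.56 to 1.75 in controls, with overlap.

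The ATPases split. Psmc1 and Psmc6 were called higher without replicate 3, at 0.53 ± 0.13 (edgeR adjusted p 0.0102) and 0.46 ± 0.14 (adjusted p 0.0244), and Psmc5 was called lower at -0.49 ± 0.15 (adjusted p 0.0243). Psmc5 stood at 67.3, 53.4 and 80.6 CPM in KPC, against 77.6, 75.8, 85.3 and 98.0 CPM in controls. The KPC replicates 1 and 2 were below every control and replicate 3 was not. With all libraries Psmc5 was at -0.33 ± 0.17 (edgeR adjusted p 0.206). Psmc1 and Psmc6 were at 0.35 and 0.33 in DESeq2 with all libraries (adjusted p 0.262 and 0.234).

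Of the core subunits 1 was called. The alpha subunit Psma6 was the only one of 14 core genes called without replicate 3, higher at 0.36 ± 0.12 (edgeR adjusted p 0.0372). With all libraries it was at 0.25 in DESeq2 (adjusted p 0.337). In all libraries 11 of 14 core fold changes lay below 0, with a median of -0.15. The smallest p of the alpha subunits was that of Psma4 at -0.31 ± 0.15 (edgeR adjusted p 0.18) and of the beta subunits that of Psmb2 at -0.36 ± 0.16 (edgeR adjusted p 0.155). Psmb7 was at -0.25 ± 0.16 (edgeR adjusted p 0.272), with the same sign as at day 21, and was not called without replicate 3 either (-0.27 ± 0.17, adjusted p 0.216).

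Of the activators, Psme4 was higher and Psme1 and Psme2 lower without replicate 3. Psme4 (chr11:30771726-30880361, plus strand), the nuclear cap, stood at 85.7, 97.3 and 54.7 CPM in KPC, against 57.9, 56.8, 61.1 and 51.1 CPM in controls. KPC replicates 1 and 2 exceeded every control and replicate 3 lay among them. The log2 fold change was 0.48 ± 0.20 with all libraries (edgeR adjusted p 0.131) and 0.67 ± 0.12 without replicate 3 (adjusted p 0.00168). Psme2 (chr14:55587441-55591113, minus strand) stood at 37.1, 26.6 and 55.4 CPM in KPC, against 62.1, 56.5, 57.9 and 78.1 CPM in controls. All KPC libraries lay below all controls, replicate 3 by the least. Its log2 fold change was -0.68 ± 0.25 with all libraries (edgeR adjusted p 0.109, interval -1.25 to -0.11) and -1.01 ± 0.19 without replicate 3 (adjusted p 0.00247).

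Psme1, the alpha part of the same ring, stood at 67.4, 35.9 and 78.2 CPM in KPC, against 76.5, 76.8, 81.2 and 93.5 CPM in controls. KPC replicates 1 and 2 were below every control. It was at -0.44 ± 0.25 with all libraries (edgeR adjusted p 0.231) and -0.68 ± 0.23 without replicate 3 (adjusted p 0.0379). Emc9, a membrane protein complex gene that shares exon sequence with Psme1 on the other strand, was also lower without replicate 3 (-1.05 ± 0.23, edgeR adjusted p 0.00532). The ratio of Psme2 to Psme4 in CPM was 0.433, 0.274 and 1.01 in KPC replicates 1 to 3, against 0.947 to 1.53 in controls. It was chosen after the values above were seen. The low ratio of replicates 1 and 2 follows from them and is no further result, and replicate 3 lay among the controls.

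Unlike at days 14 and 21, 1 leading number of the library codes was shared at day 26, by KPC replicates 1 and 2 and control replicates 1 to 3. What it stands for is not given in the labels. A fit of these libraries uses the same KPC libraries as the fit without replicate 3 and the same controls but 1, so its calls are not independent of those above. Within these libraries 9 members were called, 8 higher and 1 lower (Psme2), against 47.1% of genes (24.3% higher and 22.8% lower). A fit of all 20 libraries together called 6 members, Psmd3, Psmd4 and Psme4 higher and Psmb2, Psmd5 and Psme2 lower, against 34.6% of genes.

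Markers of other cells were uneven at day 26. KPC replicate 1 held 436 CPM of summed leukocyte markers, 1281 CPM of endothelial markers and 336 CPM of myofibre markers. KPC replicates 2 and 3 held 41.7 and 29.8 CPM, 411 and 654 CPM, and 121 and 85.2 CPM of these, and controls held at most 32.6, 763 and 113 CPM. No endothelial, leukocyte or myofibre marker was at 0 in all libraries of a group. The part of these markers in the results of day 26 was not tested.

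**Figure D3:**
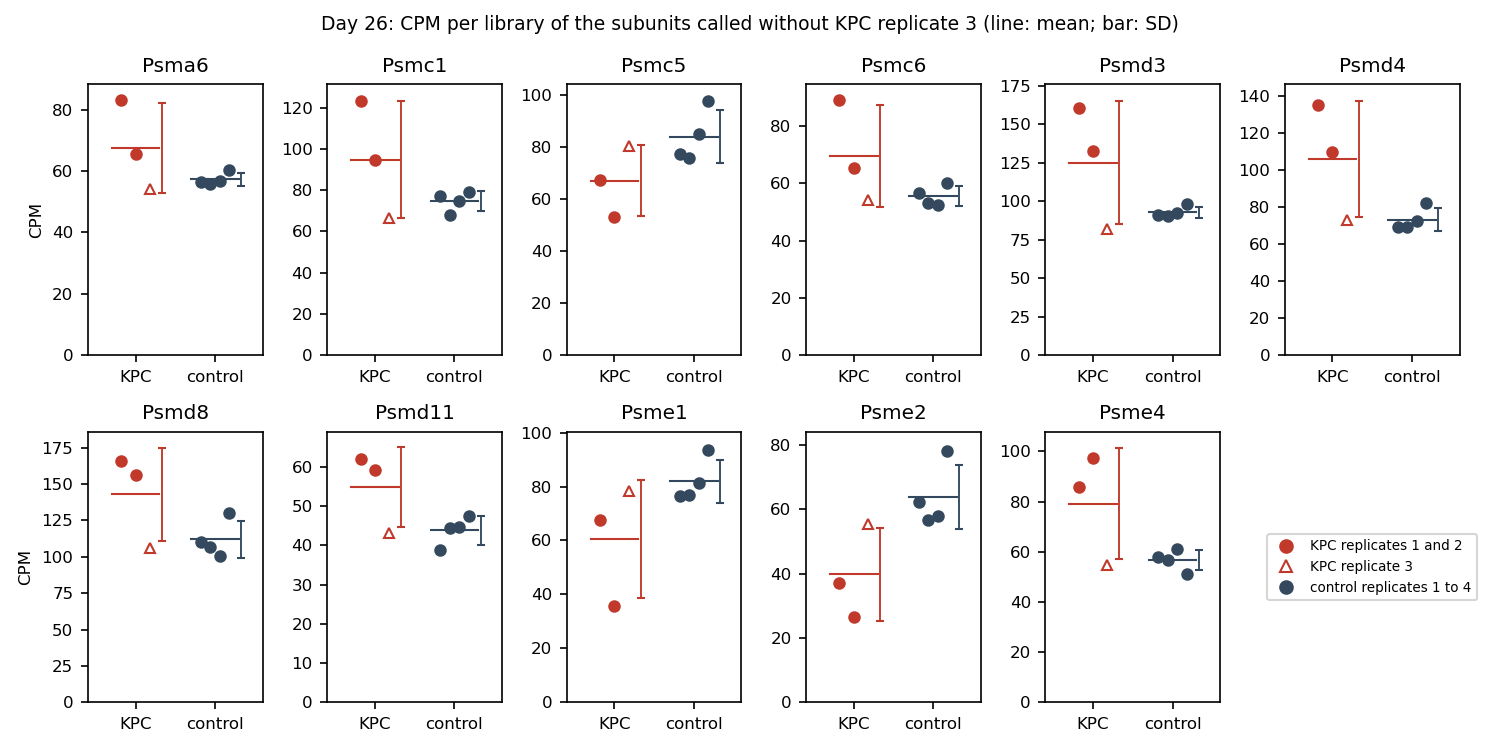
CPM per library at day 26 of the 11 members called without KPC replicate 3, KPC left and control right; filled circles are KPC replicates 1 and 2 and the 4 controls, the open triangle is KPC replicate 3, and the line and bar give the mean and SD. For Psmd4 the KPC replicates 1 and 2 lie at 135 and 109.6 CPM and replicate 3 at 72.8 CPM, among controls at 69.0 to 82.0 CPM.

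The KPC effect was then compared between days in a single fit of all 20 libraries, in which each day kept its own controls. No member was called in any of the differences. Between day 21 and day 14 the share over all 14141 genes was 0.644%, between day 26 and day 14 it was 14.3%, and between day 26 and day 21 it was 0%. At an unadjusted p under 0.05, 3 members were lower at day 21 than at day 14 (against 15.1% of genes), 2 were higher and 5 lower at day 26 than at day 14 (33.1%), and 3 were higher at day 26 than at day 21 (12.9%). These differences were also fitted in DESeq2, whose values are not given here, and limma-voom was not run on them.

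The catalytic subunit Psmb5 had the largest of these differences between days 21 and 14 among the members. Its log2 effect at day 21 minus that at day 14 was -0.69 ± 0.23 (unadjusted p 0.00787, edgeR adjusted p 0.181), with a fold change above 0 at day 14 and below 0 at day 21. For Psmb7 the difference was -0.47 ± 0.19 (edgeR adjusted p 0.245). So the lower Psmb7 of day 21 was not shown to differ from day 14. Between day 26 and day 14 Psme4 was at 0.54 ± 0.22 (edgeR adjusted p 0.0911) and Psme2 at -0.66 ± 0.27 (edgeR adjusted p 0.0922).

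Without KPC replicate 3 of day 26, 10 members were called between day 26 and day 14, against 40.4% of 14600 genes. Psmc6, Psmd3, Psmd4, Psmd8, Psmd11, Psme3 and Psme4 were higher and Psmc5, Psme1 and Psme2 lower. Psme4 was at 0.76 ± 0.17 (edgeR adjusted p 0.00105) and Psme2 at -0.98 ± 0.23 (edgeR adjusted p 0.00156). Between day 26 and day 21 the call fell on 4 members, the lid subunits Psmd3 and Psmd13, the receptor Psmd4 and the cap Psme4, all higher, against 21.9% of genes.

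The interferon-inducible counterparts, which the member rule left out, were read beside the catalytic subunits. At day 14 Psmb10, which replaces Psmb7, stood at 45.2, 54.4, 38.2 and 38.5 CPM in KPC and 33.2, 30.6 and 34.6 CPM in controls. The groups did not overlap, and the log2 fold change was 0.43 ± 0.14 (edgeR adjusted p 0.157). Psmb9, which replaces Psmb6, was at 0.31 ± 0.18 (edgeR adjusted p 0.477), and Psmb8, which replaces Psmb5, at 0.17 ± 0.13 (edgeR adjusted p 0.621). At day 21 the fold changes were -0.03 ± 0.17 for Psmb8, -0.52 ± 0.25 for Psmb9 and -0.31 ± 0.20 for Psmb10 (edgeR adjusted p 0.926, 0.199 and 0.361).

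At day 26 all 3 counterparts were lowest in KPC replicates 1 and 2. Psmb9 stood at 2.34, 2.82 and 11.2 CPM in KPC, against 10.2, 9.76, 10.6 and 17.7 CPM in controls. KPC replicates 1 and 2 lay below every control and replicate 3 lay among them. The log2 fold change was -1.14 ± 0.56 with all libraries (edgeR adjusted p 0.179) and -2.24 ± 0.32 without replicate 3 (adjusted p 0.000705). Psmb10 stood at 22.0, 14.6 and 42.9 CPM in KPC, against 38.5, 41.3, 39.2 and 55.7 CPM in controls, and Psmb8 at 18.7, 13.3 and 34.2 CPM in KPC, against 29.6, 30.1, 27.2 and 44.6 CPM in controls. Both again had replicates 1 and 2 below every control, and without replicate 3 they were called lower at -1.27 ± 0.22 (edgeR adjusted p 0.00177) and -1.05 ± 0.24 (adjusted p 0.00654). With all libraries neither was called (-0.72 ± 0.34 and -0.57 ± 0.33, edgeR adjusted p 0.173 and 0.232). The subunits they replace, Psmb7, Psmb5 and Psmb6, were not called without replicate 3.

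**Figure D4:**
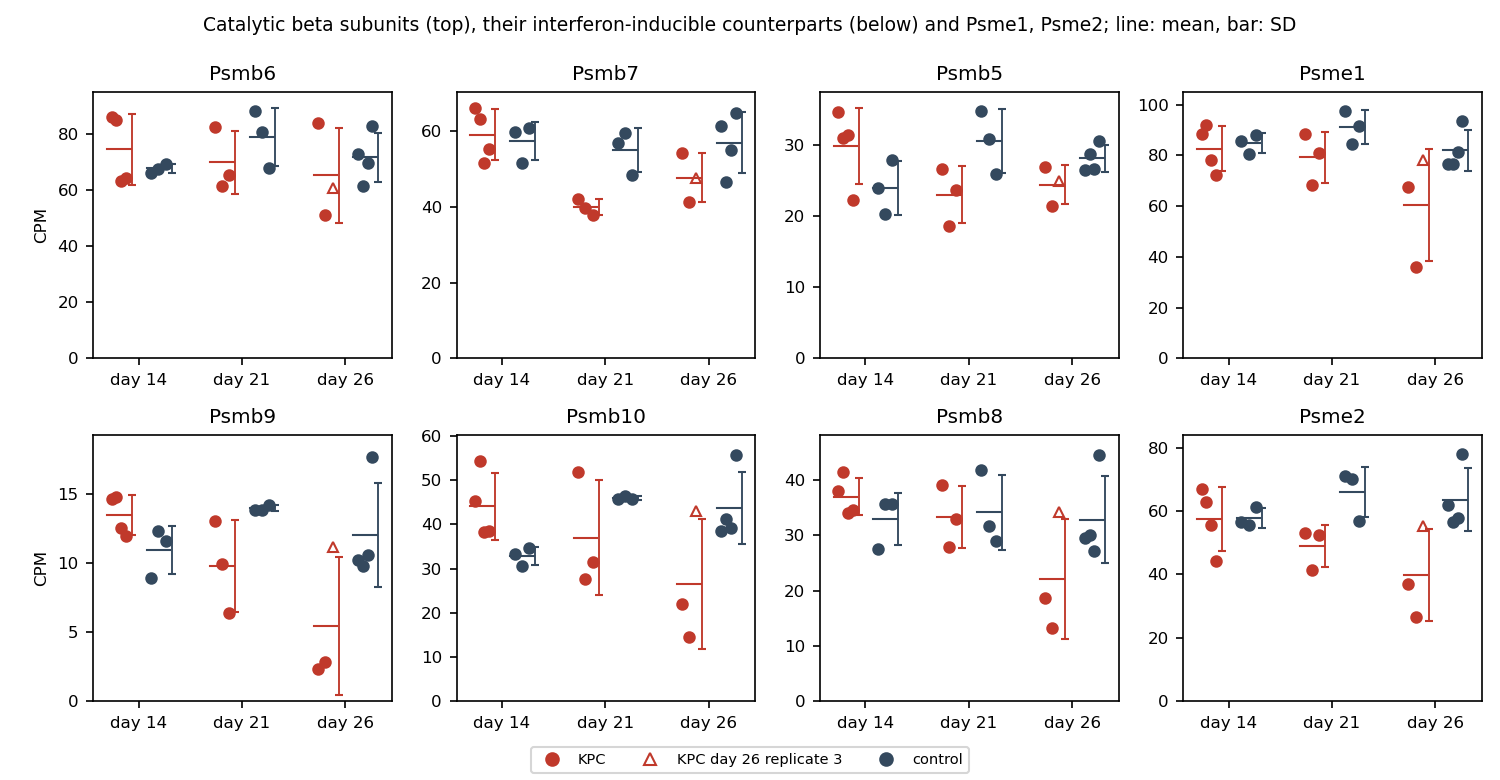
CPM per library of the catalytic subunits Psmb5, Psmb6 and Psmb7, of Psmb8, Psmb9 and Psmb10, and of Psme1 and Psme2, by day, KPC left of control within each day; lines and bars are mean and SD and the open triangle is KPC replicate 3 of day 26. Psmb9 at day 26 reads 2.34 and 2.82 CPM in KPC replicates 1 and 2, against 11.2 CPM in replicate 3 and 9.76 to 17.7 CPM in controls.

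Other genes of the pathway were read from lists of 57 symbols, Psmb8, Psmb9 and Psmb10 among them, chosen with earlier results of these data known. At day 14, 0 of 56 tested were called in edgeR (1.12% of all genes), with 11 at an unadjusted p under 0.05 (14.3% of all genes), while DESeq2 called 3 lower (4.5% of all genes in either direction) and limma-voom 0. The regulator Nfe2l2, a factor of the oxidative stress response, stood at 184, 192, 190.2 and 187 CPM in KPC and 262, 203 and 258 CPM in controls. These groups did not overlap, and the log2 fold change was -0.36 ± 0.11 (edgeR adjusted p 0.131). It was called lower in DESeq2 (adjusted p 0.0382), as were Mdm2 at -0.45 and Cxcl10 at -0.99 (adjusted p 0.0153 and 0.0259). Nfe2l1 was at 0.07 ± 0.10 (edgeR adjusted p 0.814) and Pomp, a chaperone of core assembly, at 0.25 ± 0.16 (edgeR adjusted p 0.506).

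At day 21, 5 of 56 were called, 4 higher and 1 lower, a share below the 12.5% of all genes. In the fit of all 20 libraries none of the 5 was called (3.08% of all genes). Zfand5, a zinc-finger protein that activates the proteasome, stood at 64.7, 68.5 and 76.1 CPM in KPC, against 38.4, 40.2 and 47.9 CPM in controls, without overlap (log2 0.73 ± 0.12, edgeR adjusted p 0.00325). Sqstm1, an autophagy receptor for ubiquitinated cargo, averaged 629.5 ± 115 CPM in KPC and 455 ± 12.9 CPM in controls (SD, n = 3 each; log2 0.47 ± 0.14, edgeR adjusted p 0.042). Irf1, an interferon-response factor, rose by 1.05 ± 0.18 on the log2 scale (edgeR adjusted p 0.00459), and so did the interferon-induced chemokine Cxcl10 by 1.66 ± 0.38 (edgeR adjusted p 0.0165). Uba1, the main ubiquitin-activating enzyme, was lower, with 245, 228 and 231 CPM in KPC and 313, 315 and 281 CPM in controls (log2 -0.37 ± 0.10, edgeR adjusted p 0.0332). The call on Uba1 was lost with library size alone (edgeR adjusted p 0.0660) and when KPC replicate 2, KPC replicate 3, control replicate 1 or control replicate 2 was left out (0.0823 to 0.130). The call on Sqstm1 was lost without any 1 library other than KPC replicate 1 (edgeR adjusted p 0.105 to 0.158), and that on Cxcl10 in limma-voom (adjusted p 0.0560) and without KPC replicate 2, control replicate 1 or control replicate 3 (edgeR adjusted p 0.050001 to 0.0850). Nfe2l1, Nfe2l2 and Pomp were at -0.05 ± 0.10, -0.00 ± 0.10 and -0.08 ± 0.13, none called.

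At day 26, 0 of 56 were called with all libraries in edgeR, with 21 at an unadjusted p under 0.05 (34.3% of all genes), while DESeq2 called 5 higher and 3 lower (21.6% of all genes in either direction) and limma-voom 0. Without KPC replicate 3 the count was 20 higher and 15 lower of 57, against 51.6% of all genes. In that fit Zfand5 was at 1.17 ± 0.16 and Sqstm1 at 1.27 ± 0.15, both in the direction of day 21 (edgeR adjusted p 0.000452 and 0.000232), and Uba1 was at -0.52 ± 0.14 (adjusted p 0.0129). Adrm1, a ubiquitin receptor of the base beside Psmd4, was higher at 0.78 ± 0.12 (adjusted p 0.00104). Ddi2, the protease that activates Nfe2l1, was higher at 2.12 ± 0.15 (adjusted p 2.56e-05), while the Nfe2l1 transcript itself was lower at -0.52 ± 0.15 (adjusted p 0.0199). The muscle ubiquitin ligase Fbxo32 stood at 41.4, 81.0 and 20.4 CPM in KPC, against 13.3, 12.8, 11.2 and 9.54 CPM in controls, and was called higher at 2.37 ± 0.25 (adjusted p 0.000173), against 2.02 ± 0.40 with all libraries (edgeR adjusted p 0.0592). Trim63, another such ligase, is among the 20 but did not pass the filter on low counts with all libraries of day 26, and entered that fit through the pair of KPC libraries where it was high, so its call is no result. It stood at 8.69, 2.59 and 0 CPM in KPC, against at most 0.238 CPM in controls. Myofibre markers summed to 336, 121 and 85.2 CPM in KPC replicates 1 to 3, against 34.4 to 113 CPM in controls, and their part in the values of these ligases was not tested. Nfe2l2 was at 0.29 ± 0.16 (adjusted p 0.145) and Pomp at -0.30 ± 0.17 (adjusted p 0.166). With all libraries DESeq2 gave 0.91 for Zfand5, 1.02 for Sqstm1 and 1.77 for Ddi2 (adjusted p 0.0271, 0.00617 and 0.000763). In the same test Uba1 was at -0.38, Adrm1 at 0.56 and Nfe2l1 at -0.21, none called (adjusted p 0.0578, 0.0988 and 0.535).

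Summed over the 40 members, the proteasome transcripts of KPC and control libraries overlapped on each day. The sum was 2269 to 2749 CPM in KPC and 2253 to 2533 CPM in controls of day 14. In day 21 libraries it was 2261 to 2351 CPM in KPC and 2266 to 2598 CPM in controls. In those of day 26 it was 2959, 2370.4 and 2210.2 CPM in KPC replicates 1 to 3, against 2316 to 2818 CPM in controls. At day 26 KPC replicate 1 lay above every control and replicate 3 below. The activator sum at day 21 was the exception among the classes, at 226 to 238 CPM in KPC and 253 to 271 CPM in controls without overlap. On that day 33.2% of all single genes did not overlap either. This sum includes Psme2, which did not overlap by itself.

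The balance of lid and base to core was shifted in the KPC libraries of day 26. The ratio of their summed CPM was 1.28, 1.38 and 1.11 in KPC replicates 1 to 3, against 0.973 to 1.10 in controls. The KPC libraries all lay above the controls, replicate 3 by the least. At day 14 it was 0.969 to 1.09 in KPC and 0.969 to 1.01 in controls, and at day 21 it was 1.05 to 1.20 and 1.02 to 1.08, with overlap on both days. The ATPase to core ratio at day 26 was 0.615 to 0.642 in KPC and 0.537 to 0.597 in controls, again without overlap. The ratios between classes and between genes were chosen after values were seen, are descriptions and were given no test.

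**Figure D5:**
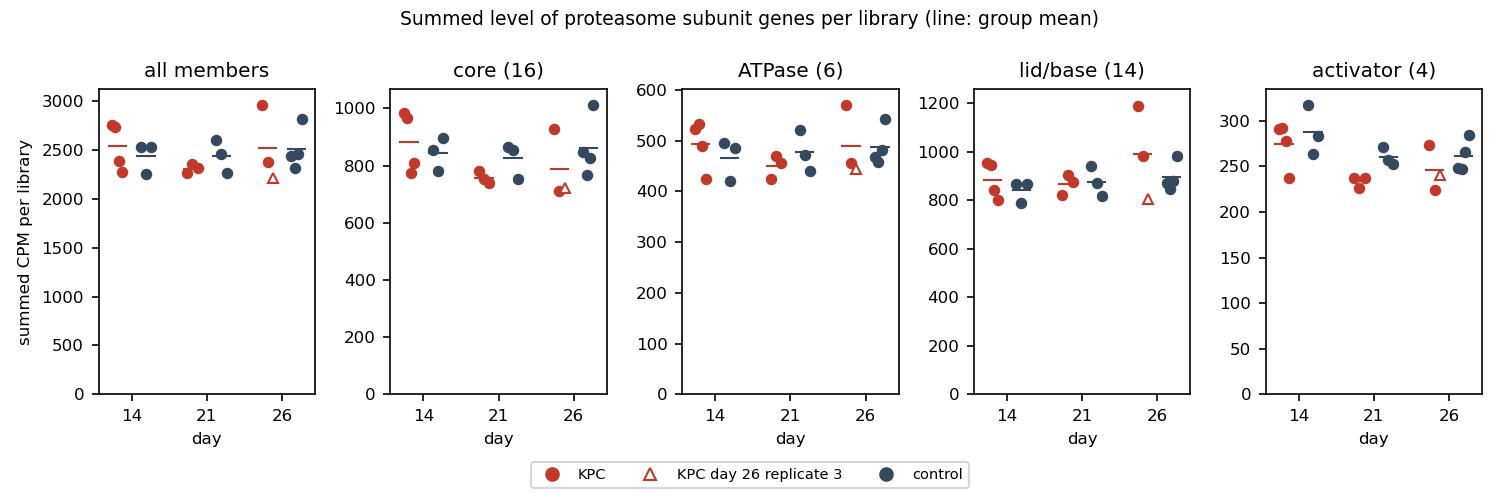
Summed CPM per library of all members and of their classes, by day, KPC left of control; points are libraries, lines are group means and the open triangle is KPC replicate 3 of day 26. The sums of all members lie between 2210.2 and 2959 CPM, and the activator sums at day 21 are separated, at 226 to 238 CPM in KPC and 253 to 271 CPM in controls.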

How the data were processed

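Messenger RNA of sorted progenitors was read from 20 libraries, which the authors deposited as raw counts for each symbol without normalization, per the labels. Tools named in the submitters' processing notes are STAR, Bowtie, bcl2fastq 2.20, R 4.2.1 and DESeq2 1.36.0, with build mm10. The program that counted reads, how it used strand and which annotation it read were not stated. The tables hold 24419, 24419 and 24421 symbols, and 50 symbols in all read as calendar dates. Total counts of 12.9 to 26.4 megacounts per library set the counting precision, and intervals cover the spread between libraries.

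KPC was compared with control within each day by edgeR 4.0.16 in R 4.3.3: TMM scaling, filterByExpr (minimum count 10, minimum total 15), a robust quasi-likelihood fit, a 2-sided test and Benjamini-Hochberg adjustment over all genes tested that day, with calls at an adjusted p under 0.05. Standard errors were the absolute log2 fold change over the square root of F, and intervals are 95%. CPM values of a comparison are TMM-scaled within its day, and levels per kb and coefficients of variation use a scaling over all 20 libraries. Exon lengths and positions come from GENCODE vM21 and promoter windows from RefSeq. DESeq2 1.42.0, limma-voom (limma 3.58.1), other scalings and filters, left-out libraries, a replicate block and the libraries of a shared code number were run as alternatives. The code was also tested on simulated data. Nothing in the labels says that a replicate number marks a shared litter, cage or day, so the numbers were not used as pairs. Deviations of same-numbered KPC and control libraries had correlations from -0.11 to 0.15. Those of day 26 were all positive (0.069, 0.068 and 0.147). The best match was the control of the same number for KPC replicates 2 and 3 of day 26 and replicate 1 of day 21.

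The members and lists were chosen with earlier results of these data known. Named by rule were, at each day, the called members of each class or the one with the smallest p, the largest fold change, the extremes of level per kb in each class, members that did not pass the filter, Psme1 and Psme2, called pathway genes, and always Psmb8, Psmb9, Psmb10, Nfe2l1, Nfe2l2 and Pomp. This gave 34 genes, 23 of them members. Other genes with values were chosen after those values were seen. Of 167 list symbols, 3 were matched by a synonym and 1 had no match.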

Additional observations from a re-analysis of the deposited data

Results flagged for a closer look

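In groups of 4 libraries, the highest or lowest library was set against the others by Dixon's ratio (critical value 0.829). Of 76 such groups of a named gene, 7 held an outlying library, and chance gives about 1 in 20. At day 14 KPC replicate 4 was low for Psme4 (76.5 CPM, against 82.8 to 83.8 CPM in the other KPC libraries) and high for Zfand5 (105.1 CPM, against 74.4 to 79.3 CPM). The other 5 all fell on control replicate 4 of day 26, which was high for Psma7 (87.0 CPM, against 64.0 to 67.9 CPM in the other controls), Psmb3 (53.5 CPM, against 38.6 to 40.0 CPM), Psmb8 (44.6 CPM, against 27.2 to 30.1 CPM), Psmb9 (17.7 CPM, against 9.76 to 10.6 CPM) and Psmb10 (55.7 CPM, against 38.5 to 41.3 CPM). These 5 genes are all core subunits, inducible counterparts included. The genes share this library, so they are not independent. This library and KPC replicate 4 of day 14 each had a code number other than the rest of their group.

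Among the 34 named genes the KPC effect differed between day 26 and day 14 for 4, none of them a member by the rule. In this contrast of edgeR over all 20 libraries 14.3% of 14141 genes were called. Sqstm1 and Zfand5 were named because they were called at day 21. On the log2 scale the difference was 0.64 ± 0.16 (SE) for Nfe2l2 (adjusted p 0.0190), 1.17 ± 0.30 for Sqstm1 (adjusted p 0.0194), 1.19 ± 0.29 for Zfand5 (adjusted p 0.0166) and -1.14 ± 0.38 for Psmb10 (adjusted p 0.049974, just under the threshold).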

How the results depend on the processing

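The counts of called members at day 14 stayed at 0 under every alternative, and those of days 21 and 26 did not hold. At day 21 the count of members called lower, 1 in the main test, was 2 in DESeq2, 2 with no filter on low counts, 0 with library size alone and 0 in the fit of all 20 libraries. Leaving out 1 library at a time gave 0 to 3 lower and 0 to 1 higher, and a median between -0.12 and -0.052, while library size alone moved the members and all genes alike, to medians of -0.026 and 0.064. At day 26, where none was called, the libraries of the shared code number gave 8 higher and 1 lower and the fit of all 20 libraries 3 and 3. Leaving out 1 library gave 0 to 8 higher and 0 to 3 lower, with calls only without KPC replicate 3. For the KPC effect at day 26 the same left-out libraries gave 0 to 10 calls against day 14 and 0 to 4 against day 21. The cause was not tested.

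With the replicate number as a block, the calls were 0 at day 14, 1 lower at day 21 and 0 at day 26, so the block changed no count of called members. It ended the call on Uba1 at day 21 (adjusted p 0.0583). In that fit Psme1 (0.021) and Psme2 (0.097) reversed at day 14. At day 21 Nfe2l1 (0.0024), Nfe2l2 (0.051) and Psmb8 (0.024) turned positive with library size alone, and Nfe2l2 (0.0043) in the fit of all 20 libraries. Leaving out 1 library at a time also crossed 0 at day 14 for Psme1 (-0.090 to 0.024) and Psme2 (-0.091 to 0.10), and at day 21 for Nfe2l2 (-0.047 to 0.038), Pomp (-0.16 to 0.0012) and Psmb8 (-0.17 to 0.13). None of these was called in the main test. Over the named genes, 529 of 597 values under an alternative kept direction and call, 26 gained a call, 26 lost one and 16 reversed.

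Depth is limiting for Psma8 and Psmb11. With 3 or 4 libraries a group, the intervals of day 26 leave room for differences beyond 1.5-fold in 20 of 38 members. Bulk counts do not separate cell mixture from regulation, and members with exon overlap are uncertain.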
